A study of Mus musculus with 12 samples.

Results

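The libraries compared here are 6 of 12, with 3 from C2C12 cells differentiated for 48 h with tumour necrosis factor alpha (TNF, 10 ng/ml) and 3 from control cells differentiated for 48 h without it, across all genes. C2C12 is an established mouse myoblast line, labelled with the strain C57BL/6 and passages 5 to 10, and every library is RNA from whole cultures. Both groups were grown in DMEM with 10% fetal bovine serum and moved at confluence to DMEM with 2% horse serum, the change that starts differentiation. TNF was present during those 48 h, so a single dose and a single time were measured. The series also holds 3 libraries of proliferating cells at 0 h and 3 of cells after Fbxl2 silencing, which entered the estimate of spread. The labels do not say that the replicates A, B and C came from separate cultures, so the p-values speak only of the spread among libraries, which could be technical.

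TNF is a cytokine made mainly by immune cells. It binds the receptors TNFR1 and TNFR2, which assemble adaptor and ubiquitin ligase complexes and start IkB kinase and MAP kinase cascades. IkB kinase releases NF-kB dimers to the nucleus, where they switch on chemokine, adhesion and survival genes together with the genes for their own inhibitors. In muscle, TNF is known as a mediator of wasting and as an inhibitor of myoblast differentiation, a process driven by MyoD and myogenin in which cells leave the cycle, fuse and build sarcomeres. The title of the series places Fbxl2, the gene of a substrate receptor of SCF ubiquitin ligases, and the GC-box factor Sp1 within that inhibition.

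The 6 libraries held between 27184044 and 32917763 counts, and replicates within a group correlated at 0.9946 to 0.9958 (Pearson, log2 CPM, across genes). By chi-square on counts, library A differed most from B and C in both groups. That measure grows with depth, and A was the deepest library of each group. The chi-square per degree of freedom between paired libraries was 2.83 (AB), 3.1 (AC) and 1.61 (BC) in control, and 8.65, 6.65 and 1.96 with TNF. Levels are given as CPM, counts scaled to library size, in the order A, B and C, or as mean ± SD over 3 libraries. A gene was called where edgeR's quasi-likelihood test gave an adjusted p under 0.05. All 12 myogenic marker genes passed the filter on low counts, but a gene can pass it through a single group of the series. Their summed level was 4759 to 5256 CPM in control and 1971 to 2100 with TNF. Markers of leukocytes and endothelium were low, and their part in the results below was not tested. The summed level of the 11 macrophage markers was 9.38 to 11.1 CPM in control and 12.9 to 13.9 with TNF, of which Cd14 alone averaged 6.57 and 10.4, and Adgre1 and Tyrobp had no count in any of the 6 libraries. The 9 lymphocyte markers summed to 0.599 to 0.899 CPM in control and 0.992 to 1.47 with TNF, and Cd8a and Cd2 had none. The 9 endothelial markers summed to 2.67 to 3.09 and 0.960 to 1.36 CPM. Fibroblast and smooth muscle markers were not low. The 10 fibroblast markers summed to 8808 to 8926 CPM in control and 6451 to 6792 with TNF, and the 8 smooth muscle markers to 3534 to 3717 and 4142 to 4285. The 9 osteoblast markers summed to 1166 to 1218 and 1318 to 1384 CPM, and the 8 adipocyte markers to 29.82 to 31.8 and 16.35 to 18.61.

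TNF changed the level of 6960 of 12736 genes tested (54.6%), of which 3954 were higher (31.0%) and 3006 lower (23.6%). Most of these changes were small, since 65.8% of called genes changed under 1.5-fold. A change of at least 2-fold was called for 615 genes higher (4.83%) and 661 lower (5.19%). The largest changes were mostly rises, with 74 genes at least 10-fold higher against 13 at least 10-fold lower. The split of calls depended on scaling: by library totals alone 3186 genes were higher and 3728 lower, and the median log2 fold change of all genes moved from 0.03 to -0.03. Every TNF library lay above every control library in 36.2% of genes and below in 28.5%. The counts below are to be read against these shares. List counts and medians cover tested members only, and a member near silent in control can pass the filter through its TNF libraries.

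**Figure D1:**
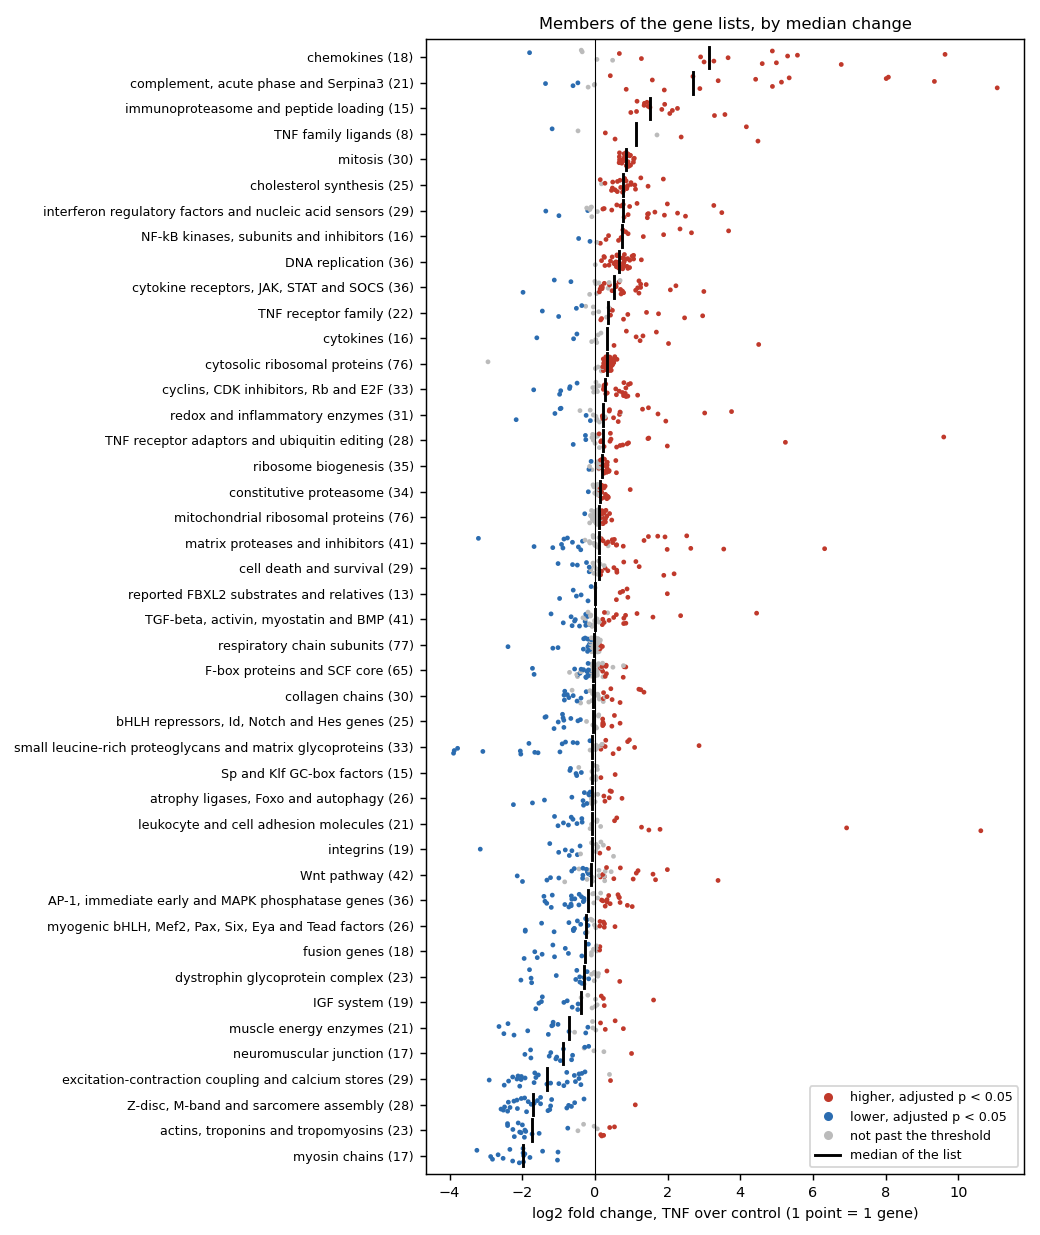
Log2 fold change of TNF over control for every tested member of 44 gene lists (1 point per gene, number tested in parentheses), ordered by the list's median (black bar). Chemokines, complement and peptide loading genes lie to the right and myosins, actins, troponins and Z-disc genes to the left, while the median of all genes is 0.03.

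Few genes of the TNF family of ligands were detected. Of 18 listed, 8 passed the filter on low counts, 5 were called higher and 1 lower. The Tnf gene itself was close to undetected, with 3 counts over the control libraries and 10 over the TNF libraries, a ratio of 3.46 (95% counting interval 0.89 to 19.5), and was not tested. Tnfsf18, whose product costimulates T cells through GITR, stood at 0.629, 0.209 and 0.144 CPM in control and 7.74, 5.15 and 5.78 with TNF. Tnfsf4, the OX40 ligand, was at 0.144 CPM in control and 3.33 with TNF, and Tnfsf10, the death ligand TRAIL, at 0.251 and 1.29. All 3 rose, and none of their TNF libraries overlapped the control libraries. Tnfsf15 fell 2.26-fold, from 2.84 ± 0.183 to 1.24 ± 0.298 CPM.

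Both TNF receptors were expressed. Tnfrsf1a, which encodes the death domain receptor TNFR1, was at 99.2, 102 and 99.4 CPM in control and 106, 116 and 114 with TNF. The groups did not overlap, but the rise was small, 1.12-fold (log2 fold change 0.16, SE 0.05, edgeR adjusted p = 0.0125), and was not called when libraries were scaled by their totals (adjusted p = 0.101), without TNF library B (0.0681) or without the libraries of letter C (0.193). Tnfrsf1b, which encodes TNFR2, a receptor without a death domain, was at 52.4, 51.4 and 53.3 CPM in control and 91.6, 87.4 and 92.1 with TNF, and rose 1.73-fold (adjusted p = 9.39e-11). Over the receptor family, 12 of 22 tested genes were higher and 4 lower, and their median log2 fold change was 0.35. The death receptor gene Fas went from 6.65, 7.07 and 6.76 CPM to 39.1, 37.00 and 37.2, a 5.53-fold rise, and Tnfrsf9, the costimulatory receptor 4-1BB, rose 7.81-fold from 1.42 ± 0.287 CPM. Tnfrsf11b, the decoy receptor osteoprotegerin, rose 3.36-fold. Among the lower genes, Tnfrsf25 fell 1.42-fold and Eda2r 1.28-fold.

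Downstream of the receptors, 17 of 28 adaptor and ubiquitin editing genes were called higher and 3 lower. The first adaptors of the TNFR1 complex moved little: Tradd was at 16.9 ± 0.659 CPM in control and 18.4 ± 1.12 with TNF (adjusted p = 0.143), while Ripk1 rose 1.19-fold and Fadd, which recruits caspase-8, 1.51-fold. TRAF genes differed in direction. Traf1, which lacks the RING domain of the others, stood at 0.899, 0.836 and 0.827 CPM in control and 3.17, 3.64 and 3.47 with TNF, a 3.98-fold rise from a low level. Traf2, Traf3 and Traf5 rose 1.62-, 1.7- and 1.85-fold, Traf4 fell 1.51-fold, and Traf6 was at 40.8 ± 0.396 and 40.96 ± 3.26 CPM (log2 fold change 0.00, 95% interval -0.11 to 0.12).

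The inhibitor of apoptosis genes rose together but from very different levels. Birc3, which encodes cIAP2, had 0.599, 0.383 and 0.252 CPM in control and 15.9, 16.2 and 16.3 with TNF, a 37.9-fold rise. Birc2, the gene of cIAP1, was expressed in control at 41.3 ± 1.34 CPM and rose 1.9-fold, and Xiap rose 1.12-fold. With TNF, Birc2 still stood above Birc3, 78.4 ± 4.03 against 16.1 ± 0.213, although CPM does not correct for length. In the linear ubiquitin ligase complex, Rnf31 rose 1.33-fold and Rbck1 1.13-fold, and Sharpin was at 27.9 ± 0.500 and 27.1 ± 1.69 CPM (adjusted p = 0.545).

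Genes that restrain the pathway were among the members that rose most. Tnfaip3, the gene of the ubiquitin editing enzyme A20, stood at 37.1, 35.2 and 33.7 CPM in control and 97.9, 99.5 and 94.3 with TNF, a 2.75-fold rise (adjusted p = 6.17e-15). Its binding partner Tnip1 rose 2.79-fold, to 163 ± 10.9 CPM. Tnip3 was almost absent from control (2 counts in all 3 libraries) and stood at 20.2, 19.8 and 21.9 CPM with TNF, a ratio of 927 (95% counting interval 256 to 7656). Tnip2 did not pass the test, with 15.00 ± 0.169 and 14.2 ± 1.71 CPM. The deubiquitinase genes Cyld and Otulin went opposite ways, 1.36-fold higher and 1.19-fold lower. Optn rose 1.34-fold, while Tax1bp1, Itch, Tab2 and Tab3 did not pass the test. Tab1 fell 1.2-fold, and Map3k7, which encodes the kinase TAK1, rose 1.08-fold.

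The largest rises among NF-kB genes were those of Nfkbie, Nfkbia and Bcl3, and the IkB kinase genes moved least. Of 16 tested, 13 were higher and 2 lower, and their median log2 fold change was 0.74. Nfkbia, which encodes IkB alpha (chr12:55489410-55492647, minus strand, GRCm38, GENCODE M21), stood at 21.7, 24.9 and 23.8 CPM in control and 147, 147 and 150.3 with TNF. Nfkbie, the gene of IkB epsilon, stood at 9.08, 8.85 and 9.6 CPM and 118, 118 and 117, a 12.8-fold rise (SE 0.07 on the log2 scale, adjusted p = 2.3e-20). The replicates of both genes were tight, and the groups lay far apart. Bcl3, a nuclear IkB protein that acts as a coactivator, rose 5.07-fold, from 3.24 ± 0.690 to 16.4 ± 0.459 CPM. Nfkbib and Nfkbiz rose 1.8- and 1.7-fold, and Nfkbid had 4 and 11 counts and was not tested.

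Among subunits, Relb was at 17.9, 16.8 and 16.9 CPM in control and 60.9, 66.1 and 64.5 with TNF, a 3.71-fold rise, and its partner Nfkb2 at 70.99, 73.5 and 70.96 and 174, 183 and 186, a 2.52-fold rise. These are the subunits of the non-canonical dimer. Rel rose 1.88-fold, Nfkb1 1.65-fold and Rela 1.3-fold, the last from 85.9 ± 3.86 to 111 ± 5.4 CPM. Upstream, Map3k14, which encodes the kinase NIK that starts non-canonical processing, fell 1.36-fold (adjusted p = 7.63e-06). The IkB kinase genes changed least: Chuk was 1.11-fold higher, Ikbkg 1.1-fold lower, and Ikbkb did not pass the test (adjusted p = 0.356). The related kinases Ikbke and Tbk1 rose 1.57- and 1.24-fold.

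**Figure D2:**
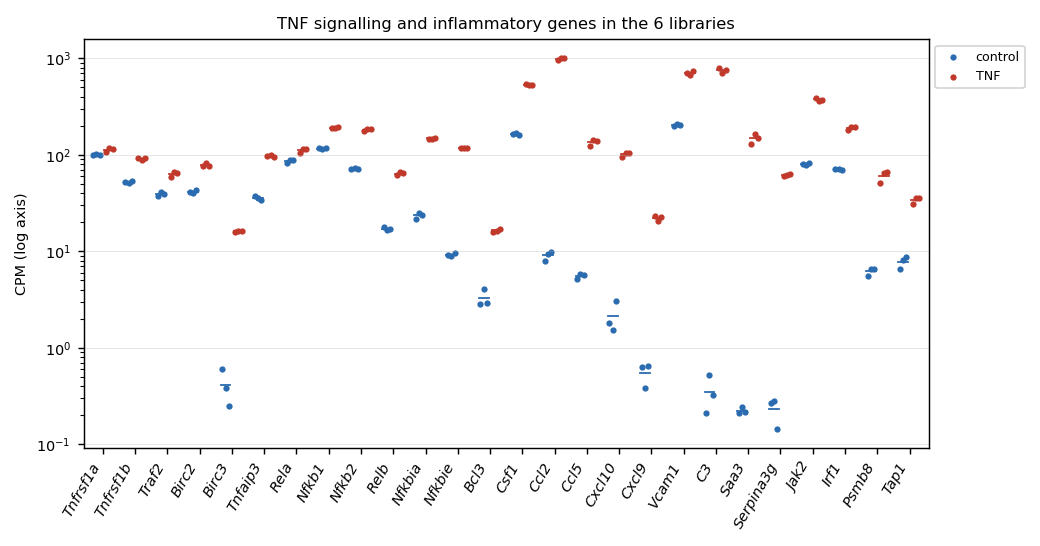
CPM (log axis) of TNF signalling and inflammatory genes in each control and TNF library, with the mean of each group as a bar. Tnfrsf1a and Rela differ by 1.12- and 1.30-fold between groups, Tnfrsf1b by 1.73-fold, the inhibitors Nfkbia and Nfkbie by 6.31- and 12.8-fold, and C3 and Saa3 by more than any other gene shown.

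Since several of these genes are textbook NF-kB targets, the RefSeq promoter table (GRCm38.p6, 250 bases before to 50 after each start) was searched for the kappaB consensus, a motif of 10 bases, on both strands. The 8 stretches below are shown because their genes rose and a match lay in the bases before the start, and were chosen after both were seen. The first 7 show kappaB matches in capitals, which overlap each other in Cxcl1, and the last shows in capitals the interferon response core (GAAA, any 2 bases, GAAA) upstream of the Cxcl10 kappaB pair.
Nfkbia (chr12:55492648-55492706, minus strand): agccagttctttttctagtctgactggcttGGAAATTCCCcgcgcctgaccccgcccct
Nfkbie (chr17:45555564-45555633, plus strand): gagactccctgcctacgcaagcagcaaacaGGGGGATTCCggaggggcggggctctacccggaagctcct
Tnip3 (chr6:65590314-65590383, plus strand): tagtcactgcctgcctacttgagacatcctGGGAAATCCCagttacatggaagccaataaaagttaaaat
Csf1 (chr3:107760584-107760653, minus strand): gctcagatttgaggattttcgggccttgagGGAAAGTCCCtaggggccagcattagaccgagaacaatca
Cxcl1 (chr5:90891144-90891214, plus strand): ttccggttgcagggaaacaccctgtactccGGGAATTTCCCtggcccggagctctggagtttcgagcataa
Serpina3g (chr12:104236032-104236101, plus strand): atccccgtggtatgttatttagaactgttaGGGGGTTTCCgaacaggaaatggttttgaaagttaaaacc
Cxcl10 (chr5:92348953-92349078, minus strand): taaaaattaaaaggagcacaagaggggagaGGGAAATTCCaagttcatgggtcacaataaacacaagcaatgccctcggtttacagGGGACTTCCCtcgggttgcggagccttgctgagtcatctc
Cxcl10 (chr5:92349063-92349132, minus strand): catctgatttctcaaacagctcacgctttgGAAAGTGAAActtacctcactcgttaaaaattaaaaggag

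A kappaB match lay in 35 of 165 promoters (21.2%) of genes called at least 4-fold higher with TNF, 192 genes of which 141 were in the promoter table. It lay in 7.64% of 144 promoters of genes called at least 4-fold lower, 5.33% of 12396 promoters of tested genes and 4.51% of all 32851 promoters. In the NF-kB list 8 of 20 promoters, from 13 genes, held one (40%), the highest share of the lists searched. A gene with several starts counts more than once. The share was 28.6% for immunoproteasome and peptide loading genes, 24.1% for chemokines and 13.9% for interferon regulatory factors and sensors. It was 10% for cholesterol synthesis genes and 0% for myosin chains. The interferon core was found in 16.4% of the promoters at least 4-fold higher, 3.47% of those at least 4-fold lower and 3.11% of those of tested genes. The GC box GGGCGG lay in 61.3% of the promoters of tested genes and 35.7% of all promoters. Its share was similar in both changed sets, 29.1% and 31.2% of the promoters at least 4-fold higher and lower. These shares describe letters in a window and were not tested. No kappaB match lay in the 250 bases before the start of Birc3, Icam1, C3 or Saa3, which rose more than Nfkbia.

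**Figure D3:**
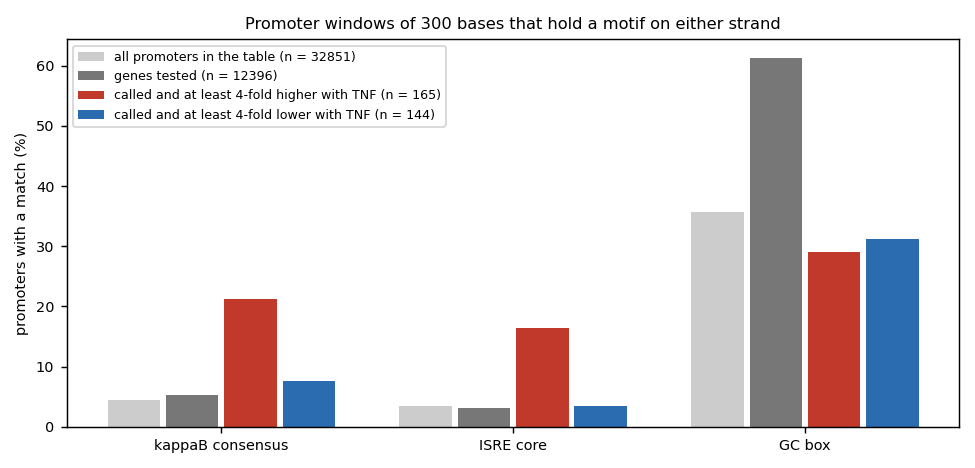
Percent of RefSeq promoter windows of 300 bases with at least 1 match on either strand, for all promoters, those of tested genes, and those of genes called at least 4-fold higher or lower with TNF. The kappaB and interferon motifs were most frequent in the promoters of genes at least 4-fold higher, at 21.2% and 16.4%, and the GC box in those of tested genes, at 61.3%.

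The other transcription factor arm of TNF signalling, AP-1 and the immediate early genes, did not rise as a group at 48 h. Of 36 tested, 13 were higher and 18 lower. Fosl1 and Junb, subunits of AP-1, rose 2.04- and 1.86-fold, Junb from 66.2, 67.1 and 66.4 CPM to 127, 124 and 121. Ier3 rose 1.62-fold. Klf2, a factor that opposes inflammatory gene expression in endothelium and myeloid cells, went from 40.1, 39.1 and 36.6 CPM to 14.5, 14.5 and 14.8, a 2.65-fold fall. Egr3 fell 2.51-fold and the phosphatase gene Dusp2 2.59-fold.

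Among tested members, chemokine genes were the list with the largest median change. Of 37 listed, 18 passed the filter, 13 were higher (72.2% of those tested, against 31.0% of all genes) and 1 lower, and their median log2 fold change was 3.14. The share and median leave out members that did not pass. They include genes near silent in control, such as Cxcl11 with 1 count there and 1063 with TNF, which can pass through the TNF libraries. Ccl2, a monocyte attractant (chr11:82035571-82037453), stood at 7.88, 9.47 and 9.78 CPM in control and 965, 1002 and 1004 with TNF, a 109.9-fold rise. Ccl5, an attractant of T cells and monocytes, stood at 5.15, 5.78 and 5.65 CPM and 122, 142 and 139, a 24.3-fold rise.

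The genes of the ligands of CXCR3, known as interferon-inducible T cell attractants, all rose. GENCODE M21 lists Cxcl11 as a polymorphic pseudogene. That label describes the reference genome, and whether the gene is intact in these cells was not tested. Cxcl10 was at 1.83, 1.53 and 3.02 CPM in control and 93.8, 105 and 103 with TNF, Cxcl9 at 0.629, 0.383 and 0.647 and 23.4, 20.5 and 22.4, and Cxcl11 at 1 count in all of control and 12.3 ± 0.600 CPM with TNF. Cxcl10 rose 47.7-fold (adjusted p = 5.51e-11) and Cxcl9 39.5-fold. The neutrophil attractant Cxcl1 was at 1.68, 1.64 and 2.19 CPM and 21.8, 24.1 and 23.8. This gene lies outside the naming rule and is given for its promoter. The membrane-bound chemokine Cx3cl1 was present in control at 21.2 ± 1.6 CPM and rose 2.43-fold. Cxcl13, an attractant of B cells, fell 3.48-fold from 2.04 ± 0.273 CPM, and its TNF libraries all lay below the control libraries.

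Cytokine genes were mixed, with 8 of 16 tested higher and 3 lower. Csf1, the macrophage growth factor, was the most abundant of those that rose, at 162, 169 and 162 CPM in control and 537, 521 and 531 with TNF (3.23-fold, adjusted p = 2.24e-16). Il6 was low in control, with 21 counts, and reached 5.89, 5.0 and 5.31 CPM. Il7 rose 4.07-fold. Il33, a nuclear alarmin, went from 82.4, 80.8 and 78.2 CPM to 27.5, 26.7 and 25.5, a 3.03-fold fall, and Il18 and Clcf1 fell 1.5- and 1.41-fold.

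Receptors and signal transducers of other cytokines rose more often than they fell, 25 higher and 3 lower of 36. Jak2, a kinase bound to many of these receptors, went from 80.96, 77.6 and 81.1 CPM to 389, 363 and 372, a 4.69-fold rise with an SE of 0.04 on the log2 scale. Il1rl1, the receptor of IL-33, rose 7.99-fold while its ligand fell, and Il15ra rose 4.22-fold. Stat3 was abundant in both groups, at 239, 239 and 234 and 245, 239 and 239.5 CPM, and the groups overlapped (log2 fold change 0.02, 95% interval -0.07 to 0.12). Socs3, a STAT3 target and feedback inhibitor, was at 45.8, 49.99 and 48.4 and 46.6, 50.6 and 46.98 CPM (interval -0.12 to 0.12). Socs2 fell 1.58-fold, and Cntfr and Csf2rb fell 3.94- and 2.17-fold from 1.57 and 2.23 CPM.

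Interferon regulatory factors and sensors of nucleic acids gave 20 higher and 3 lower of 29 tested, with a median of 0.78. Irf1 was at 70.3, 70.5 and 68.9 CPM and 179.8, 195 and 196, a 2.72-fold rise. Irf7, itself an interferon target, was at 21.9, 27.4 and 26.7 and 76.1, 109.8 and 99.6 CPM, with TNF library A the lowest of its group. Irf5 rose 5.63-fold. The sensor genes Tlr2 and Zbp1 rose 11.3- and 9.66-fold, to 87.1 ± 3.12 and 134 ± 17.6 CPM. Tlr6 fell 1.15-fold.

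The largest fitted fold change of any tested gene was that of C3. This gene, which encodes the central complement component (chr17:57203970-57228136, minus strand), had 0.210, 0.522 and 0.324 CPM in control and 795, 704 and 759 with TNF (log2 fold change 11.07, SE 0.13, adjusted p = 4.64e-22). The control value rests on 31 counts. Saa3, a serum amyloid A gene, stood at 0.210, 0.244 and 0.216 and 129, 163 and 151 CPM, and Serpina3g, a serine protease inhibitor, at 0.270, 0.279 and 0.144 and 60.3, 61.3 and 63.4. Serpina3i had no count in control and 100 counts with TNF, at least 11.6-fold higher when each control library is set to a floor of 3 counts. The Serpina3 genes are near-identical neighbours, so reads may be split or shared between them. In the list, 15 of 21 tested were higher and 3 lower. Among those that fell, Cd55 and Cd59a, which encode inhibitors of complement, fell 2.57- and 1.38-fold. Lcn2, a common NF-kB target elsewhere, had no count in any of the 6 libraries.

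Adhesion genes did not move as a group, with 7 higher and 9 lower of 21. Vcam1, which binds leukocyte integrins and is also made by myoblasts, was at 199.9, 208 and 202 CPM in control and 708, 674 and 732 with TNF, a 3.46-fold rise. Icam1 had no count in control and 5.95, 7.25 and 7.19 CPM with TNF, at least 67.5-fold higher on the same floor of 3 counts in each control library. Icam5, its neighbour on the chromosome, rose 2.8-fold to 1.53 ± 0.300 CPM. Among those that fell, Cdh15, which encodes M-cadherin, went from 417, 426 and 407 CPM to 189.6, 193 and 195, and Ncam1 fell 1.82-fold and F11r 2.02-fold.

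All 15 genes of the immunoproteasome and of peptide loading were called higher, and their median log2 fold change was 1.51. Psmb9 and Psmb8, catalytic subunits that replace those of the standard proteasome, were at 0.869, 0.766 and 1.19 and 5.54, 6.51 and 6.55 CPM in control. With TNF they stood at 9.63, 12.8 and 11.3 and 51.02, 65.2 and 65.4 CPM. TNF library A was the lowest of its group for both. Tap1, a peptide transporter subunit, rose 4.38-fold and Tapbp, the tapasin gene, 4.83-fold, from 127 ± 6.34 to 616 ± 11.9 CPM. Cd74, the invariant chain of MHC class II and not one of these 15 genes, went from 0.270, 0.174 and 0.144 to 10.2, 11.7 and 9.6 CPM. In the list of standard proteasome genes the changes were smaller, with 19 of 34 higher, 1 lower and a median of 0.13, or 14 higher and a median of 0.08 by library totals. The largest rise in that list was that of Psmd10, 1.96-fold.

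Cell death genes gave 12 higher and 6 lower of 29. The inflammatory caspase genes Casp4 and Casp1 rose 4.53- and 3.72-fold, Casp4 from 16.4, 14.9 and 15.5 CPM to 65.99, 72.5 and 73.9. Bid, which links death receptors to mitochondria, rose 2.33-fold. Pmaip1, Bcl2l11 and Bmf, which also encode BH3-only proteins, were lower. Pmaip1 went from 75.8, 68.8 and 70.4 CPM to 38.5, 33.7 and 34.2, a 2.02-fold fall, and Bcl2l11 and Bmf fell 1.53- and 1.4-fold. Bcl2l1, the survival gene BCL-XL, was at 57.01 ± 1.34 and 52.8 ± 2.09 CPM and did not pass the test (adjusted p = 0.0665).

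Among redox and inflammatory enzymes, 16 of 31 were higher and 6 lower. Sod2, mitochondrial superoxide dismutase and a known NF-kB target, rose 1.56-fold, from 54.1, 54.2 and 52.4 to 81.7, 86.03 and 82.9 CPM. Its extracellular counterpart Sod3 rose 3.87-fold and the metallothionein gene Mt2 3.33-fold. Nos2, inducible nitric oxide synthase, rose from 13 to 104 counts per group, and was still low with TNF, at a mean of 1.21 CPM. Gpx3, a secreted glutathione peroxidase, fell 4.49-fold from 52.6 ± 2.96 CPM, Nos1 2.15-fold and Ptgis 1.94-fold.

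The muscle program was lower with TNF at nearly every level. In RNA from whole cultures, fewer cells of a type and less RNA per cell cannot be told apart. All 12 myogenic marker genes fell, and their median log2 fold change was -1.50, and their summed level went from 4759 to 5256 CPM in control to 1971 to 2100.0 with TNF. Several of these markers also define lists below.

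The regulators fell by unequal amounts. Myf5 and Pax7, which mark undifferentiated myoblasts and satellite cells, were at 44.5, 43.5 and 44.6 and 17.7, 20.7 and 19.1 CPM in control and 37.1, 37.2 and 36.3 and 12.5, 13.1 and 13.1 with TNF, falls of 1.2- and 1.48-fold. Myod1, the determination factor, went from 99.8, 98.6 and 93.2 to 45.7, 45.8 and 42.3 CPM, a 2.18-fold fall, and below the 74.7 ± 1.59 CPM of the proliferating cells. Myog, the myogenin gene (chr1:134289989-134292548) that drives terminal differentiation, went from 328, 289.7 and 289.7 CPM to 91.5, 70.7 and 77.7, and still lay above the 22.5 ± 2.31 CPM of proliferating cells. Its cofactor Mef2c fell 3.78-fold, from 30.98, 23.3 and 23.2 to 8.44, 5.33 and 6.66 CPM, and Tead4 2.77-fold. In both groups library A held the highest Myog and Mef2c. Myf6 was barely detected, at 0.321 ± 0.0668 and 0.280 ± 0.187 CPM, and did not pass the test.

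Over the list of myogenic factors 15 of 26 fell and 6 rose, against 23.6% and 31.0% of all genes. By library totals 17 fell and 3 rose. The rises were small, 1.47-fold for Eya1, 1.2-fold for Tead3 and 1.2-fold for Six5, which was not called by library totals (adjusted p = 0.0718) or by DESeq2 (0.0688). Inhibitors of MyoD activity did not rise as a group: of 25 genes of bHLH repressors, Id and Notch signalling 8 rose and 11 fell. Id1 and Id3, which sequester the partners of MyoD, went from 15.7, 15.3 and 16.3 and 53.4, 56.5 and 50.6 CPM to 7.45, 7.1 and 7.05 and 31.7, 30.1 and 27.04. The Notch targets Hey1, Heyl and Hes1 fell 2.59-, 2.54- and 1.58-fold. Those that rose included Bhlhe40 (1.62-fold), Twist2 (1.38-fold) and Rbpj, the nuclear effector of Notch (1.45-fold).

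**Figure D4:**
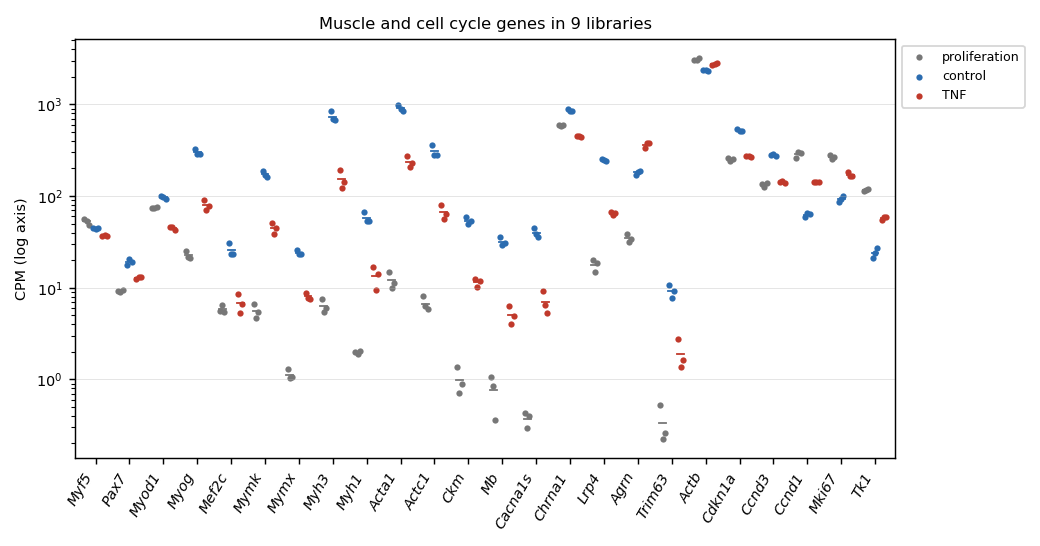
CPM (log axis) of muscle and cell cycle genes in each proliferation, control and TNF library, with group means as bars. The TNF libraries of Myog, Mymk, Mymx, Myh3, Acta1, Actc1 and Ckm lie between those of proliferating and control cells, those of Myf5, Myod1 and Chrna1 below both, and those of Ccnd1, Mki67 and Tk1 between the proliferating and control libraries.

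Every one of the 17 tested myosin and myosin-binding genes fell, by 2.02-fold (Mylk2) to 9.5-fold (Mybpc1). Myh3, embryonic heavy chain (chr11:67078300-67102291), dominated in both groups, at 838, 691 and 681 CPM in control and 193, 123 and 143 with TNF. Library A was the highest in each group, and the lowest control library was more than 3 times the highest TNF library. Myh8, the perinatal chain, went from 30.6, 17.6 and 19.4 to 3.61, 2.43 and 3.19 CPM, and Myh7, the slow chain, from 33.9, 22.99 and 23.9 to 6.01, 3.83 and 4.11. The adult fast chains Myh1 and Myh2 fell 4.23- and 3.91-fold and Myh4, at 3.36 ± 0.465 CPM in control, 2.04-fold. Myh6 and Myh7b fell 7.06- and 3.45-fold.

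Light chains and binding proteins fell as well. Mylpf, the fast regulatory light chain, went from 588, 516 and 504 CPM to 157, 118 and 134 (3.93-fold), Myl1 and Myl4 fell 3.9- and 3.81-fold, and Myl2, at 0.959 CPM in control, 6.34-fold. Mybph, Mybpc2 and Mybpc1 fell 3.94-, 5.07- and 9.5-fold. The kinase genes Mylk2 and Mylk4 fell 2.02- and 2.71-fold. Myl3 and Myh13 had 11 or fewer counts in each group and were not tested.

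Embryonic Myh3 held most of the heavy chain RNA in both groups. Per kilobase of exon, Myh3 took 88.63% ± 0.57 of the CPM of 7 heavy chain genes in control and 88.26% ± 1.17 with TNF (SD, n = 3). Myh1 took 6.61% ± 0.09 and 7.41% ± 0.84. The shares of Myh7 and Myh8 were lower with TNF in every library, 2.09% to 2.50% against 1.76% to 1.95% for Myh7 and 1.17% to 1.65% against 0.85% to 1.00% for Myh8, and that of Myh4 was higher, 0.37% to 0.47% against 0.72% to 1.24%. The length used is the union of all annotated exons, 11772 bases for Myh8 and 8616 for Myh7 against 6057 for Myh3. The size of each share therefore depends on the annotation. Myh7b and Myh13 were not among the 7 genes. These shares were not tested.

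In thin filaments, 14 of 23 genes fell and 5 rose. Acta1, skeletal actin, went from 996, 893 and 843 CPM to 273, 206 and 232, and Actc1, the cardiac actin of immature muscle, from 362, 283 and 282 to 79.01, 56.3 and 63.7. Per kilobase of exon, Acta1 and Actc1 together with Acta2, Actb and Actg1 form the expressed actins, a set put together after values were seen. The share of Acta1 was 13.5% ± 0.69 in control and 3.59% ± 0.50 with TNF, and that of Actb 20.0% ± 0.49 and 24.0% ± 0.50. Neb, the nebulin gene, Lmod2 and Tnnc2 fell 5.29-, 5.3- and 4.78-fold. The genes that rose were Tpm4 (1.45-fold), Tpm3 (1.33-fold), the cytoplasmic actin genes Actb (1.18-fold) and Actg1 (1.12-fold), and the smooth muscle actin gene Acta2 (1.14-fold, from 31.15% ± 0.33 to 36.14% ± 0.13 of the actins). By library totals Actg1 was not called.

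Z-disc and M-band genes fell in 27 of 28 cases. Myoz2 and Actn2, which encode a Z-disc calcineurin-binding protein and a sarcomeric alpha-actinin, fell 6.0- and 5.29-fold. The single gene that rose was Synm, an intermediate filament protein, from 1.44, 1.67 and 1.47 CPM to 3.81, 2.94 and 3.12. The calcium handling list gave 27 lower and 1 higher of 29. Cacna1s, the voltage sensor of the T-tubule, went from 44.3, 38.3 and 35.8 CPM to 9.12, 6.47 and 5.28. Casq1 and Trdn, calsequestrin and triadin of the calcium store, fell 7.51- and 5.19-fold, and Asph rose 1.35-fold.

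The 2 genes that drive myoblast fusion fell together. Mymk, listed by its older symbol Tmem8c, went from 188, 170.0 and 161 CPM to 50.3, 38.8 and 45.2, a 3.86-fold fall (SE 0.17 on the log2 scale, adjusted p = 7.07e-06). Mymx, listed as Gm7325, went from 25.98, 23.5 and 23.2 to 8.8, 7.8 and 7.55 CPM, a 3.0-fold fall. Cav3, the caveolin of muscle, fell 3.15-fold. Over the fusion list 10 of 18 fell, and Dock1 and Cd9 rose 1.1- and 1.09-fold, neither of which was called when libraries were scaled by totals (adjusted p = 0.186 and 0.182) or without control library A (0.0676 and 0.123). Itgb1 was at 1695 ± 36.1 and 1771 ± 101 CPM and did not pass the test.

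At the neuromuscular junction 13 of 17 genes fell, 3 did not pass the test and 1 rose. The gene that rose was Agrn, the secreted organiser of the synapse, from 170.2, 184 and 189.9 CPM to 334, 379 and 382, a 2.01-fold rise. Its receptor Lrp4 went from 251, 247 and 241 to 67.4, 61.5 and 65.5 CPM, a 3.8-fold fall, and Musk, the kinase that Lrp4 activates, from 36.4, 33.3 and 35.2 to 17.4, 16.2 and 17.01. Of the acetylcholine receptor subunits, Chrna1 fell 1.93-fold from 861 ± 33.7 CPM and Chrng, the fetal subunit, 3.39-fold. Erbb3 fell 3.41-fold.

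The dystrophin complex fell in part, 13 lower and 2 higher of 23. Ano5 and Sntb1 fell 3.48- and 3.38-fold, while Sgcd rose 1.61-fold and Ispd 1.26-fold. The call for Ispd was lost by RLE scaling (adjusted p = 0.0588), by library totals (0.0993) and by DESeq2 (0.0973). Dmd itself had 17 counts over the control libraries and 7 over the TNF libraries and was not tested. Muscle energy genes gave 13 lower and 4 higher of 21. Ckm, muscle creatine kinase, went from 58.8, 50.2 and 52.8 CPM to 12.5, 10.2 and 11.7, and Mb, the myoglobin gene, from 36.05, 28.9 and 30.4 to 6.3, 4.05 and 4.85. Pygm and Cox8b fell 5.68- and 5.25-fold. The general glycolytic genes Ldha, Tpi1 and Aldoa rose 1.72-, 1.47- and 1.22-fold.

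Genes known from muscle atrophy were not higher as a group. Trim63, the ligase MuRF1, went from 10.7, 7.66 and 9.14 CPM to 2.75, 1.36 and 1.63, a 4.74-fold fall, and Fbxo32, the ligase atrogin-1, from 146, 142 and 151 to 117, 119 and 117, a 1.24-fold fall. Foxo6 fell 2.62-fold and the autophagy gene Map1lc3a 1.55-fold. Bnip3, Ddit4 and Eif4ebp1 rose 1.68-, 1.37- and 1.34-fold. Of 26 tested, 6 rose and 11 fell. Mstn, the myostatin gene, had 4 counts in control and none with TNF, and no fold can be given.

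Genes of DNA replication and mitosis were higher with TNF. All 30 genes of mitosis and 35 of 36 of DNA replication were called higher, with medians of 0.86 and 0.68, against 31.0% and a median of 0.03 for all genes. Mki67 went from 85.6, 91.96 and 99.2 CPM to 184, 165 and 165, still below the 268 ± 15.97 CPM of proliferating cells. Tk1, thymidine kinase, rose 2.43-fold, Uhrf1, which maintains DNA methylation at replication forks, 2.09-fold, and Cdc6, which licenses origins, 2.09-fold. The mitotic genes Ttk, Ncapg and Birc5 rose 2.12-, 2.09- and 2.08-fold.

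The D cyclins split. Ccnd1 went from 59.3, 66.1 and 63.3 CPM in control to 142, 142 and 142, a 2.26-fold rise, about midway on the log scale to the 286 ± 22.6 CPM of proliferating cells. Ccnd2 rose 1.51-fold, from 47.4, 48.98 and 47.6 to 72.5, 70.8 and 73.6. Ccnd3, the D cyclin that accumulates in differentiating muscle, went from 282, 287 and 274 to 142, 148 and 139.9 CPM, a 1.96-fold fall to near the 134 ± 6.38 CPM of proliferating cells. Cdkn1a, the inhibitor p21 that holds myocytes out of the cycle, went from 544, 513 and 510.5 to 277, 270.5 and 269 CPM, and Cdkn1c fell 3.22-fold. Myc rose 1.97-fold and E2f7 1.9-fold. Of the whole list 20 of 33 were higher and 6 lower.

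Growth factor systems of muscle shifted in their ligands and binding proteins. In the IGF system 9 of 19 genes fell and 4 rose. Igf2, an autocrine factor of differentiating myoblasts, went from 94.5, 71.7 and 67.1 CPM to 28.6, 22.4 and 24.6, with library A the highest in both groups. Igfbp5, the abundant binding protein, went from 1585, 1571 and 1537 to 586, 557 and 549 CPM, a 2.78-fold fall, and Igfbp3 fell 2.91-fold. Igfbp7, which binds IGF weakly, rose 3.06-fold, from 234 ± 2.68 to 716 ± 39.7 CPM, and Irs1 and Igf2bp2 1.2- and 1.18-fold.

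In the TGF-beta and BMP family 15 of 41 rose (36.6%) and 12 fell (29.3%), near the 31.0% and 23.6% of all genes. The BMP antagonist gene Grem1 rose 2.23-fold, from 113, 111 and 111 CPM to 259, 232 and 257, while Nog fell 2.31-fold from 1.7 ± 0.337 CPM. Inhba, a subunit of activin, which restrains muscle growth, went from 31.9, 30.3 and 30.5 to 53.7, 50.7 and 56.1 CPM, a 1.73-fold rise. Fst, the gene of follistatin, which binds activin and myostatin, went from 39.8, 27.9 and 30.5 to 21.2, 15.8 and 16.7 CPM, a 1.83-fold fall (adjusted p = 0.003). The latent TGF-beta binding genes Ltbp2 and Ltbp3 went 3.03-fold up and 1.58-fold down.

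Wnt genes also split, 13 higher (31%) and 16 lower (38.1%) of 42, against 31.0% and 23.6% of all genes. Wnt10a went from 47.1, 48.1 and 46.4 CPM to 147, 149.6 and 154, a 3.18-fold rise, Wnt6 rose 10.5-fold and Rspo3, which amplifies Wnt signals, 3.98-fold. Wnt4 went from 5.39, 5.82 and 4.78 to 1.54, 1.29 and 1.17 CPM, and Wnt9a and the receptor gene Fzd9 fell 2.5- and 4.4-fold.

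Collagen genes were called in shares near those of all genes. Of 30 chains 9 rose (30%) and 9 fell (30%), against 31.0% and 23.6% of all genes. The summed CPM of 44 collagen genes was 17304 to 17535 in control and 15390.0 to 16779 with TNF. Col1a1 was at 1819, 1840.3 and 1781 CPM and 2007, 1914 and 1993 and did not pass the test (log2 fold change 0.12, 95% interval -0.03 to 0.27). Col3a1, also a fibrillar chain, went from 5984, 5963 and 5947 to 4024, 3767 and 4029 CPM. The basement membrane chain Col4a1 fell 1.8-fold, and Col17a1 and the microfibril chain Col6a2 fell 1.79- and 1.78-fold. Col5a3, Col7a1 and Col8a1 rose 2.55-, 2.4- and 2.31-fold, Col8a1 to 550.0 ± 41.9 CPM.

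In the list of small leucine-rich proteoglycans and matrix glycoproteins 10 of 33 tested genes rose (30.3%) and 15 fell (45.5%). Of all genes 31.0% rose and 23.6% fell. Postn, the periostin gene (chr3:54361109-54391037), stood at 279, 265 and 258 CPM in control and 2162, 1748 and 1938 with TNF, a 7.29-fold rise. The crosslinking enzyme gene Loxl4 rose 1.93-fold. Dcn, decorin, went from 507, 483 and 476 to 124, 118 and 114 CPM, and Prelp, a proteoglycan that anchors basement membranes, from 52.4, 47.2 and 42.1 to 7.1, 4.6 and 4.89. Cilp, which encodes a cartilage protein that binds TGF-beta, went from 163, 150.5 and 141 to 11.2, 8.61 and 11.2 CPM, a 14.6-fold fall, and Fbln7 fell 13.7-fold. Lum, the lumican gene, fell 14.8-fold from 1.08 CPM.

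**Figure D5:**
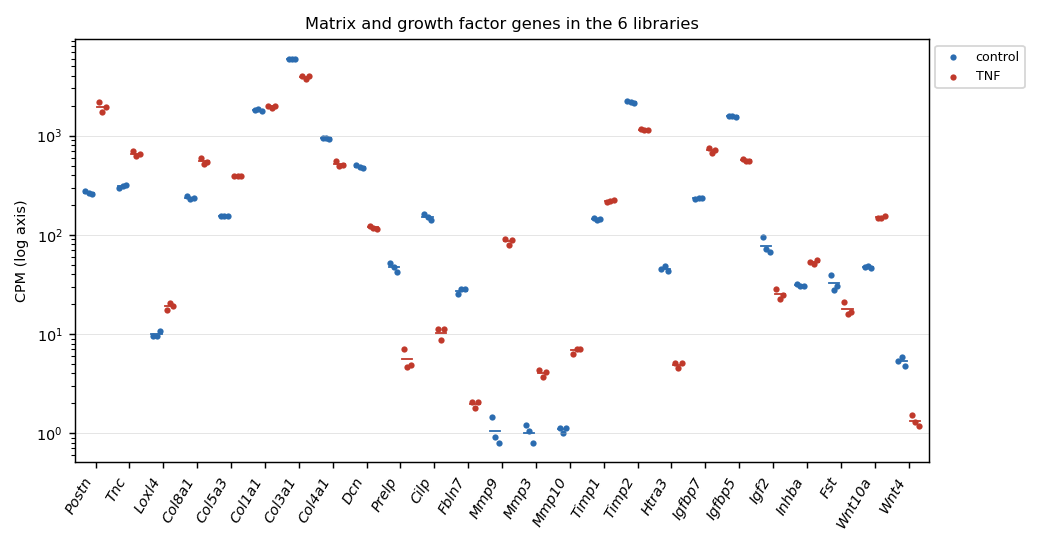
CPM (log axis) of matrix, protease and growth factor genes in each control and TNF library, with group means as bars. Postn is higher with TNF by 7.29-fold and Mmp9 by more than any other gene shown, Dcn, Prelp, Cilp, Fbln7 and Htra3 are lower, and the Col1a1 libraries of the 2 groups differ least.

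Among proteases and their inhibitors 19 of 41 rose and 11 fell. Mmp9, gelatinase B (chr2:164940780-164955850), went from 1.47, 0.906 and 0.791 CPM to 91.5, 79.04 and 89.1 (log2 fold change 6.32, SE 0.13, adjusted p = 1.07e-18). Mmp8, Mmp10 and Mmp3 rose 11.7-, 6.23- and 3.97-fold, to means of 4.71, 6.82 and 4.06 CPM. Mmp13 was at 2.27 ± 0.151 and 2.42 ± 0.495 CPM and did not pass the test. The inhibitors went opposite ways: Timp1 rose from 148, 142 and 143 to 213, 217 and 225 CPM, while Timp2 went from 2243, 2182 and 2123 to 1181, 1138 and 1144, a 1.89-fold fall. Htra3, a secreted serine protease gene, fell 9.23-fold, from 44.9, 48.4 and 43.2 to 5.12, 4.56 and 5.07 CPM, and Mmp15 3.19-fold. Of 19 integrin genes 2 rose and 8 fell, the rises being 1.29-fold for Itgav and 1.1-fold for Itga3, of which only Itgav was called by library totals, and the largest fall that of Itga8, 8.91-fold from 1.18 CPM.

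Cholesterol synthesis genes rose in 24 of 25 cases with none lower, and a median of 0.78. Cyp51, a sterol demethylase gene, went from 175, 184 and 190.1 CPM to 521, 500.5 and 491, a 2.76-fold rise, and Acat2 rose 2.4-fold. Cytosolic ribosomal protein genes also rose together, 71 of 76, but by little, with a median of 0.34 and Rps24, Rpsa and Rps19 highest at 1.52-, 1.46- and 1.44-fold. Scaling by library totals called 70 of them higher, with a median of 0.28. Ribosome biogenesis genes gave 23 higher and 2 lower of 35, led by Nop56 (1.51-fold). Mitochondrial ribosomal proteins gave 27 higher and 1 lower of 76, but 17 and 4 with library totals. Respiratory chain genes mostly did not pass the test, with 3 higher and 13 lower of 77 (1 and 23 by library totals), and their largest falls were in the muscle isoforms Cox8b and Cox6a2.

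Fbxl2, the gene named in the title of the series, changed little. It lies on the minus strand at chr9:113963637-114046191 (GRCm38, GENCODE M21). Its level was 31.9, 32.6 and 34.4 CPM in control and 27.7, 29.2 and 29.7 with TNF, and the highest TNF library lay below the lowest control library. The fall was 1.14-fold (log2 fold change -0.19, SE 0.06, 95% interval -0.32 to -0.06, adjusted p = 0.0137). The call was lost without control library C (adjusted p = 0.0626), without TNF library A (0.0629) and without the libraries of letter C (0.0892). The proliferating cells held 25.95 ± 1.71 CPM. Sp1, the GC-box factor of the title, was at 178, 178 and 178 and 190.4, 173 and 179.6 CPM and did not pass the test (interval -0.07 to 0.12), and its relative Sp3 was 1.12-fold higher.

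The 250 bases before the RefSeq start of Fbxl2 are shown because the title concerns them, with the GC boxes GGGCGG in capitals. The strand searched as plus is that of the gene, on which both matches lie, and the window lies inside the span that GENCODE gives the gene. At least 1 such box was found in 32.7% of all upstream windows of this length and in 56.6% of those of tested genes.
Fbxl2 (chr9:114026752-114027001, minus strand): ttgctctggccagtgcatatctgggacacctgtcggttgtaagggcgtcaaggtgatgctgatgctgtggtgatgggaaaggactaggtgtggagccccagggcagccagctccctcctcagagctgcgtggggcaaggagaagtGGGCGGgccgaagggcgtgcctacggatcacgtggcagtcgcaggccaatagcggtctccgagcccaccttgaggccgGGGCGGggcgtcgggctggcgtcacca

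Other F-box genes did not share a direction, 11 higher (16.9%) and 16 lower (24.6%) of 65, against 31.0% and 23.6% of all genes. Those that rose most include the cell cycle members Fbxo5 (1.75-fold) and Ccnf (1.72-fold), and Fbxo48 rose 1.8-fold. Fbxl22, a sarcomeric F-box protein, fell 3.19-fold, and Fbxo36 and Fbxl20 fell 1.47- and 1.4-fold. Genes of proteins reported as FBXL2 substrates, with related genes, were split evenly, 6 higher and 6 lower of 13 with Fbxl2 among them. Beyond the cyclins and TRAFs above, Aurkb rose 1.87-fold, and Pik3r2 and Itpr3 fell 1.42- and 1.3-fold. Fbxo3, the ligase reported to act on FBXL2, was 1.07-fold lower, at the edge of the threshold (adjusted p = 0.0497). These are levels of RNA and say nothing of protein turnover. Of GC-box factors 2 of 15 rose (0 by library totals) and 5 fell, among them Klf9, Klf11 and Klf3 by 1.61-, 1.59- and 1.43-fold.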

How the data were processed

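The authors deposited raw counts per gene symbol for 12 libraries and a table of their own TNF comparison with log2 fold changes and adjusted p-values. CASAVA, DESeq2 and the build mm10 are named in the submitters' processing notes; no source used here gives the aligner, the counter or its use of strand, so antisense partners, overlapping genes and near-identical copies cannot be told apart. Of 21232 genes, 4354 had no count and 12736 passed filterByExpr. Counts were fitted with edgeR 4.0.16 in R 4.3.3 (TMM factors, robust quasi-likelihood, 4 group means, 8 residual degrees of freedom, median biological coefficient of variation 0.0482), with Benjamini-Hochberg adjustment over all genes tested. CPM uses the total times the TMM factor, and the floor is 3 counts in each library. Counting intervals are exact, at 95%, and cover counting error only.

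Alternatives used DESeq2 1.42.0, limma 3.58.1, other scalings, filters and libraries. On simulated counts for this comparison, run on 12736 genes, 94 of 100 genes changed 2-fold were recovered and 15 of 12536 unchanged genes were called. The simulation changed few genes, equally up and down, whereas 54.6% were called in the data. It therefore does not test errors of scaling, and these figures do not cover changes under 2-fold. The authors' deposited table gives 6661 of 13943 genes an adjusted p under 0.05, 3434 higher and 3227 lower, and lists 6948 of the calls made here, all in the same direction, of which 6206 are also under 0.05 there.

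The members and the 52 gene lists (1533 genes, 217 of them not tested and 2 not in the table) were chosen with earlier results of these data known. Genes are named where they stand in a fixed set, are among the 3 largest called rises or falls in a list (mean of at least 1 CPM in the higher group), are among the 10 largest called rises or falls of all genes with at least 3 counts in each of the 6 libraries and a mean of at least 10 CPM in the higher group, or belong to the adaptor, NF-kB, myosin or FBXL2 lists. Cxcl1, Acta2, Actg1 and the markers without a count are named outside that rule. Some genes that the rule names are not reported here.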

Additional observations from a re-analysis of the deposited data

How the results depend on the processing

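The count of called genes stayed within 1.5 times of 6960 under all 18 alternatives, from 5000 without the libraries of letter C in every group to 8029 with a replicate block and 6 libraries, and no gene called in both fits was called in opposite directions. The replicate block over 12 libraries gave 7070 calls (4013 higher, 3057 lower) and over 6 libraries 8029 (4057 higher, 3972 lower). The letters were not taken to pair libraries, since the labels do not say that they do. Same-letter deviations correlated at 0.183 for A, 0.0451 for B and -0.0592 for C, and control B correlated best with TNF C. By chi-square on counts, library A differed most from B and C in both groups. By correlation of log2 CPM it did not in control, where BC was lowest (0.9954, against 0.9958 for AB and AC). Whether the A libraries share a batch was not tested. Of 278 named genes called, 257 kept their call and direction under every alternative run. The other 21, each of which lost the call in at least 1 fit without a library, were Acta2, Actg1, Cd9, Chuk, Dock1, Fbxl2, Fbxo3, Ikbkg, Ispd, Itga3, Map3k7, Rbck1, Six5, Sp3, Spp1, Tab1, Tead3, Tlr6, Tnfrsf1a, Tnfrsf25 and Xiap, and the cause was not tested. With all libraries of both groups kept, library totals ended the call for Actg1, Cd9, Chuk, Dock1, Ispd, Itga3, Map3k7, Rbck1, Six5, Sp3, Tnfrsf1a and Xiap, DESeq2 for Chuk, Dock1, Ispd, Map3k7, Six5 and Tlr6, RLE scaling for Chuk, Ispd and Map3k7, limma-voom for Chuk and Tlr6, no filter beyond 1 count for Cd9, Chuk, Dock1, Ispd, Itga3 and Map3k7, a filter of 1 CPM for Chuk and Ispd, and the 6 libraries alone for Map3k7. Bcl2l1 passed the threshold in 7 fits and Col1a1 in 3.

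Among named genes, sign changes were seen only in some that were not called. With RLE scaling, the log2 fold change was -0.015 for Socs3 and -0.0099 for Traf6. By library totals, the log2 fold change was -0.0032 for Ikbkb, -0.055 for Socs3, -0.031 for Sp1, -0.031 for Stat3, -0.035 for Tab2, -0.023 for Tax1bp1 and -0.050 for Traf6. With DESeq2's Wald test, the log2 fold change was -0.015 for Socs3 and -0.0099 for Traf6. With no filter beyond 1 count, the log2 fold change was -0.027 for Socs3, -0.0034 for Sp1, -0.0034 for Stat3, -0.0074 for Tab2 and -0.022 for Traf6. With a filter of 1 CPM in 3 libraries, the log2 fold change was -0.0075 for Socs3 and -0.0026 for Traf6. With 6 libraries only, the log2 fold change was -0.030 for Socs3, -0.0065 for Sp1, -0.0067 for Stat3, -0.010 for Tab2 and -0.025 for Traf6. With the replicate block and 6 libraries, the log2 fold change was -0.030 for Socs3, -0.0071 for Sp1, -0.0066 for Stat3, -0.011 for Tab2 and -0.027 for Traf6. Without 1 library, it ranged from -0.021 to 0.25 for Mmp13, -0.79 to 0.16 for Myf6, -0.087 to 0.0062 for Sharpin, -0.041 to 0.025 for Socs3, -0.014 to 0.054 for Sp1, -0.0043 to 0.046 for Tab2, -0.15 to 0.018 for Tnip2 and -0.032 to 0.066 for Traf6. Without 1 letter in every group, it ranged from -0.052 to 0.23 for Mmp13, -0.95 to 0.23 for Myf6, -0.012 to 0.016 for Socs3, -0.016 to 0.057 for Sp1, -0.15 to 0.027 for Tnip2 and -0.047 to 0.072 for Traf6. Without letter A it was -0.018 for Traf6, and without letter B -0.0084 for Socs3.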

Other observations

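Several large changes belonged to no list. Ecscr, which encodes a regulator of endothelial cell chemotaxis, averaged 0.113 ± 0.0279 CPM in control and 10.3 ± 1.05 with TNF, an 88.9-fold rise, while the endothelial marker Tek fell 3.85-fold from 2.33 ± 0.0748 CPM. Ablim3, an actin-binding LIM protein gene, went from 13.3 ± 1.41 CPM to 2.02 ± 0.123, a 6.6-fold fall. Dhrs3, which encodes a retinaldehyde reductase, went from 54.1 ± 1.94 CPM to 8.77 ± 0.196, a 6.17-fold fall.

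Markers of other mesenchymal lineages moved in both directions. Of 6 smooth muscle genes tested 4 rose, Cnn1 1.49-fold and Tagln 1.4-fold among them, and 1 fell. All 3 adipocyte genes tested fell, with Pparg 1.92-fold and Cebpa 1.36-fold lower, and Plin1 and Cidec had no count. Of 6 osteoblast genes tested 2 rose (1 by library totals) and 4 fell. Spp1, the osteopontin gene, rose 1.15-fold from 1133 ± 30.5 CPM. Of 9 fibroblast genes tested 2 rose and 5 fell.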
